A study of Mus musculus with 8 samples.

Results

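The fibrillar collagen genes described here were Col1a1, Col1a2, Col3a1, Col5a1, Col5a2, Col11a1 and Col2a1, 7 of the 23483 genes in a count table of mouse poly(A) RNA. They were found by gene name through the RefSeq transcript of each row, with the row of the highest total count where a gene had several. Every member but Col2a1 had 1 row, and the 2 rows of Col2a1 held identical counts. All 7 were among the 13966 genes with enough counts to be tested.

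The table covered 4 groups of 2 libraries, all from C57BL/6 mouse embryonic stem cells and all kept at 5.5 mM glucose. The groups were Sca1 cells with a lentiviral shRNA against Set7 (Sca1Set7KD, here the knock-down cells), Sca1 cells carrying a non-target control vector (Sca1NTC, the NTC cells), Sca1 cells without a vector (Sca1wt, the untreated cells) and undifferentiated embryonic stem cells grown with LIF (mESC). Sca1 cells were obtained by differentiating mESC without LIF on gelatin, followed by magnetic sorting for the surface protein Sca1 and further culture without LIF. Both vector groups went through puromycin selection, which the untreated cells did not. The knock-down rests on 1 hairpin, so what that hairpin does apart from lowering Set7 cannot be told apart from the loss of Set7. Whether the replicates are separate cultures is not in the labels, and a p-value here covers only how far these libraries spread, which may be technical.

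Counts summed over genes were between 2507938 and 5080266 per library. Setd7, the gene of the lysine methyltransferase Set7, had 14.0 and 10.8 CPM (read counts scaled to a common library size) in knock-down cells, against 60.7 and 66.6 CPM in NTC cells, 76.3 and 66.3 CPM in untreated cells and 11.2 and 16.5 CPM in mESC, all scaled with TMM factors, which balance libraries on their typical gene. It fell by 2.39 ± 0.20 on the log2 scale in knock-down against NTC cells (SE, n = 2 each, adjusted p = 1.71e-07 in edgeR's quasi-likelihood test with Benjamini-Hochberg adjustment). Ly6a, which encodes Sca1, was low throughout, at 11.2 CPM in knock-down, 5.95 CPM in NTC and 8.70 CPM in untreated cells and 7.78 CPM in mESC, and passed the test in none of the 6 comparisons between groups. One transcript, NR_046233, took 12.0% and 11.5% of the gene counts in the second untreated and the second mESC library and at most 1.62% in the other 6, and calls of the members that change without both of those libraries are given beside them. Those 2 libraries alone carry the library code 56 in the labels.

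Fibrillar collagens are secreted proteins whose chains wind in threes into a long triple helix. That helix needs a glycine at the head of each triplet of residues, and the trimmed molecules line up in the extracellular matrix as banded fibrils. Type I collagen, a heterotrimer of the Col1a1 and Col1a2 products, and type III collagen, a homotrimer of the Col3a1 product, make up most fibrils of mesenchymal tissue and of the vessel wall, where smooth muscle cells and fibroblasts produce them. The minor types V (Col5a1, Col5a2) and XI (Col11a1) sit inside the fibrils, start their assembly and limit their width. Type II collagen (Col2a1) forms the fibrils of cartilage and is also made in the notochord and in some early epithelia.

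The glycine repeat could be read from the coding sequences in the GENCODE vM21 transcripts of the mouse genome. The longest uninterrupted run of repeats, each 3 codons long and opening with a glycine codon, had 338 of them in Col1a1, 339 in Col1a2, 344 in Col3a1, 338 in Col5a1, 339 in Col5a2, 338 in Col11a1 and 339 in Col2a1. Of 13040 tested genes with a coding sequence, 7 had a run of at least 338, and these were the members. The trait is not theirs alone, since Col11a2, a fibrillar collagen with too few counts to be tested, also had 338. Col5a3, another fibrillar collagen, reached 337, and Col27a1 and Col24a1, which belong to a separate branch of the family, reached 217 and 216. The first 10 repeats of the run are shown for members picked by their change in knock-down against NTC cells. They are the pair that fell most (Col3a1, Col1a1), the called one that fell least (Col11a1) and the one not called (Col2a1). Against untreated cells, Col5a1 was the called member that fell least. Capitals mark the first 2 bases of the glycine codon that opens each repeat.
Col3a1: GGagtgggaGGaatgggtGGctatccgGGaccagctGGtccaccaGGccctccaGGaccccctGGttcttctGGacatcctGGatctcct
Col1a1: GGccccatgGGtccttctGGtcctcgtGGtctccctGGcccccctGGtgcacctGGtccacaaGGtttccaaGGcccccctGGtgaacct
Col11a1: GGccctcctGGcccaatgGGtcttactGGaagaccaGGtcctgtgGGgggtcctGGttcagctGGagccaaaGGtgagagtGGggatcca
Col2a1: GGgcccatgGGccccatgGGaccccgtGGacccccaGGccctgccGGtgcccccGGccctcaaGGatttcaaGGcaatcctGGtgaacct

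The hairpin against Set7 was compared with the members' transcripts because a match would bear on their counts. Its 21-base target, with the site for bases 2 to 8 of the guide strand in capitals, was found whole in 1 of 13592 tested genes with a transcript sequence, Setd7 itself.
Setd7 target: ccgtgttcagagaTACCAAAt
The longest stretch that a member shared with it was 7 to 9 bases. The capital 7 bases alone occurred in the Col1a1 transcript, within its 3′ untranslated region, and in no other member, while 17.5% of the tested genes carry them somewhere in the transcript and 9.44% in the 3′ untranslated region. Such a match is a description of the letters and was not tested for an effect.

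In knock-down against NTC cells, 6 of the 7 members fell and none rose, against 10.1% of all tested genes that fell and 4.25% that rose. Over all genes these were 1404 and 594 calls, and 2505 and 1957 without both libraries rich in NR_046233. Their median log2 change was -3.02, where the median of all tested genes was -0.00. The fall was deepest in the chains of types III and I, smaller in the minor types V and XI, and Col2a1 alone among the 7 was not called.

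Col3a1 (NM_009930, chromosome 1) had 6.30 and 7.03 CPM in the knock-down libraries, against 656 and 659 CPM in the NTC, 239 and 263 CPM in the untreated and 0.229 and 0.220 CPM in the mESC libraries. The knock-down libraries lay far below both other Sca1 groups and above mESC, with no overlap between any of the 4 groups. Of the raw counts, 50 came from the knock-down and 5735 from the NTC pair, a difference of -6.60 ± 0.16 on the log2 scale and 97.2-fold lower in knock-down cells (edgeR adjusted p = 1.05e-14, Benjamini-Hochberg).

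Col1a1 (NM_007742, chromosome 11), the more abundant chain of type I collagen, had 23.1 and 13.6 CPM in the knock-down libraries, against 788 and 739 CPM in the NTC, 256 and 331 CPM in the untreated and 0.916 and 1.32 CPM in the mESC libraries. It fell by 5.43 ± 0.20 on the log2 scale, or 43.0-fold, in knock-down against NTC cells (edgeR adjusted p = 5.21e-12). The knock-down libraries, which rest on 66 and 62 counts, lay below all NTC and untreated libraries and above both mESC libraries. Col1a2 (NM_007743, chromosome 6), the partner chain, had 26.6 and 24.8 CPM in the knock-down libraries, against 303 and 291 CPM in the NTC, 184 and 185 CPM in the untreated and 1.60 and 1.32 CPM in the mESC libraries. Its fall of 3.53 ± 0.13 on the log2 scale was 11.6-fold (edgeR adjusted p = 4.90e-12), with the libraries of each group close together and the 4 groups apart.

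The minor fibril-forming chains fell less. Col5a1 (NM_015734, chromosome 2), found in every form of type V collagen, had 35.4 and 22.4 CPM in knock-down, against 238 and 214 CPM in NTC, 90.9 and 91.5 CPM in untreated and 18.5 and 21.8 CPM in mESC libraries. The NTC libraries were the highest, and the lower knock-down library stood just above the higher mESC library. Its change of -3.01 ± 0.17 (log2) in knock-down against NTC cells was 8.05-fold lower (edgeR adjusted p = 9.52e-10).

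Col5a2 (NM_007737, chromosome 1), the partner of Col5a1 and the next coding gene after Col3a1 along the chromosome, had 3.50 and 5.28 CPM in knock-down, against 40.2 and 34.1 CPM in NTC, 28.4 and 30.0 CPM in untreated and 1.83 and 1.76 CPM in mESC libraries. It fell 8.10-fold against NTC cells (log2 change -3.02 ± 0.25, edgeR adjusted p = 9.14e-08). These neighbours thus differed in the depth of their fall, with log2 changes of -6.60 and -3.02. Col11a1 (NM_007729, chromosome 3), a chain of type XI collagen, had 6.30 and 6.59 CPM in knock-down, against 45.9 and 38.1 CPM in NTC, 24.4 and 29.2 CPM in untreated and 8.01 and 6.82 CPM in mESC libraries. It fell 6.45-fold (log2 change -2.69 ± 0.23, edgeR adjusted p = 1.28e-07) to levels below both mESC libraries.

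Col2a1 (NM_001113515, chromosome 15), the cartilage collagen, had 38.9 and 35.0 CPM in knock-down, against 34.7 and 35.4 CPM in NTC, 32.8 and 26.95 CPM in untreated and 9.39 and 7.70 CPM in mESC libraries. The knock-down and NTC libraries overlapped, and the mESC libraries lay below all Sca1 libraries. The difference of knock-down and NTC cells was 0.07 ± 0.17 on the log2 scale (edgeR adjusted p = 0.857), from 270 and 306 counts, and its ratio of 1.04 had a 95% counting interval of 0.879 to 1.23, which covers counting error only. Genes of chromosome 15 stood above the rest in this comparison, with a median log2 change of 0.41 over 424 genes of at least 10 CPM, against 0.01 over 9989 genes of the other chromosomes. What part that has in the value of Col2a1 was not tested.

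The number in the labels that 1 knock-down and 1 NTC library share (12 or 34) gave 2 comparisons of single libraries. Within them the log2 difference of knock-down and NTC was -6.70 and -6.55 for Col3a1, -5.09 and -5.76 for Col1a1, -3.51 and -3.55 for Col1a2, -2.75 and -3.26 for Col5a1, -3.52 and -2.69 for Col5a2, -2.86 and -2.53 for Col11a1, and 0.16 and -0.02 for Col2a1. The falls thus stood in both codes for the 6 called members.

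**Figure D1:**
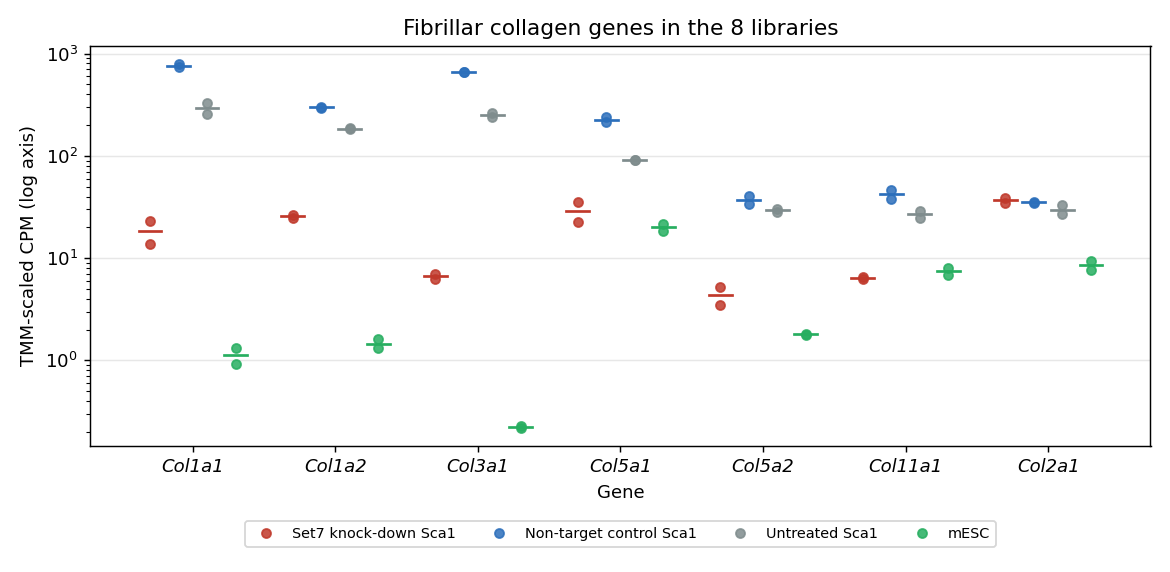
Level of each fibrillar collagen gene (TMM-scaled CPM, log axis) in each library of the 4 groups, with points for libraries and lines for the means of 2. For Col3a1 the knock-down points lie at 6.30 and 7.03 CPM under NTC points at 656 and 659 CPM, while for Col2a1 the points of the 3 Sca1 groups lie between 26.95 and 38.9 CPM.

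The untreated cells were a second control for the knock-down, and the same 6 members fell against them, where 9.89% of all genes fell and 7.34% rose. The log2 changes were -5.21 ± 0.16 for Col3a1, -4.04 ± 0.20 for Col1a1, -2.85 ± 0.13 for Col1a2, -1.70 ± 0.18 for Col5a1, -2.67 ± 0.26 for Col5a2 and -2.03 ± 0.25 for Col11a1, with the largest edgeR adjusted p among them 1.81e-05. Col2a1 was not called, at 0.29 ± 0.18 (edgeR adjusted p = 0.316). This comparison and the one with NTC cells share the knock-down libraries.

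The vector control itself differed from untreated cells in 4 members, against 3.88% of all genes that were higher in NTC cells and 1.11% that were lower. Over all genes these were 542 and 155 calls, and 1300 and 1086 without both libraries rich in NR_046233. NTC cells had more RNA of Col3a1 (log2 change 1.39 ± 0.11, edgeR adjusted p = 2.84e-06), Col1a1 (1.38 ± 0.16, adjusted p = 9.69e-05), Col5a1 (1.31 ± 0.15, adjusted p = 0.000103) and Col1a2 (0.68 ± 0.11, adjusted p = 0.00197). Col11a1 (0.66 ± 0.19, adjusted p = 0.0545), Col5a2 (0.35 ± 0.19, adjusted p = 0.331) and Col2a1 (0.22 ± 0.18, adjusted p = 0.534) did not pass. The call of Col1a2 was lost without the first NTC library (edgeR adjusted p = 0.0741), and Col11a1 was called without the first mESC library (0.0171), without the second (0.0179), without both libraries rich in NR_046233 (0.00258), with library totals only (0.0462), with no filter (0.0265) and with the compared groups only (0.0410). The median over the 7 was 0.68, where all genes had 0.01. The fold of the knock-down was therefore larger against NTC than against untreated cells for these 4 genes, for example 43.0-fold and 16.5-fold for Col1a1. NTC and untreated cells differed in vector and puromycin selection together, which cannot be told apart. NTC and knock-down cells each shared only the library code 34 with untreated cells and with mESC. Within that code, the log2 differences of NTC and untreated were 1.46 for Col3a1, 1.53 for Col1a1, 1.24 for Col5a1 and 0.66 for Col1a2.

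Every member was higher in Sca1 cells without a vector than in mESC. In untreated cells against mESC all 7 rose, where 18.7% of all genes rose and 16.8% fell, and the median over the members was 4.00, against -0.01 for all genes. Col1a1 averaged 294 ± 53.4 CPM in untreated cells and 1.12 ± 0.286 CPM in mESC (SD, n = 2 each), a log2 change of 7.99 ± 0.28, but rests on 10 counts in mESC. Col1a2 averaged 185 ± 0.439 CPM in untreated cells and 1.46 ± 0.1996 CPM in mESC, a log2 change of 6.95 ± 0.20 that rests on 13 counts in mESC. For Col3a1, with 1369 counts in untreated cells and 2 in mESC, the ratio of 1109 had a 95% counting interval of 306 to 9168.

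Col5a2, like the type I chains, was barely counted in mESC, with 16 counts there. It averaged 29.2 ± 1.14 CPM in untreated cells and 1.80 ± 0.0502 CPM in mESC (SD, n = 2 each), 16.0-fold higher. Col5a1, Col11a1 and Col2a1 had higher levels in mESC and smaller changes. Col5a1 rose by 2.17 ± 0.18 and Col11a1 by 1.84 ± 0.23 on the log2 scale. Col2a1 averaged 29.9 ± 4.11 CPM in untreated cells and 8.54 ± 1.19 CPM in mESC, a log2 change of 1.82 ± 0.21 (edgeR adjusted p = 3.79e-06). Within the shared library codes 34 and 56, the differences were 8.13 and 7.97 for Col1a1 and 1.80 and 1.81 for Col2a1. All 7 members rose in NTC cells against mESC as well, with a median of 4.34, where 19.6% of all genes rose and 15.5% fell.

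In knock-down cells against mESC, 5 members rose and none fell, where 13.5% of all genes rose and 12.4% fell. Col1a2 was higher by 4.10 ± 0.25, Col1a1 by 3.94 ± 0.37, Col2a1 by 2.10 ± 0.20 and Col5a2 by 1.33 ± 0.39 (edgeR adjusted p = 0.0181) on the log2 scale. Col3a1, with 50 counts in knock-down cells and 2 in mESC, had a ratio of 30.1 with a 95% counting interval of 7.91 to 255. Col5a1 (0.48 ± 0.20, edgeR adjusted p = 0.0874) and Col11a1 (-0.19 ± 0.28, adjusted p = 0.663) were not distinguishable between knock-down cells and mESC. The call of Col5a2 rests on 34 and 16 counts and was lost without the second knock-down library (adjusted p = 0.304), without the second mESC library (0.0712) and in DESeq2 (0.0517), while Col5a1 was called without the second knock-down library (0.0201), with no filter (0.0440) and without both libraries rich in NR_046233 (0.0346). In bulk RNA, fewer cells that make a collagen and less collagen RNA per cell cannot be told apart.

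**Figure D2:**
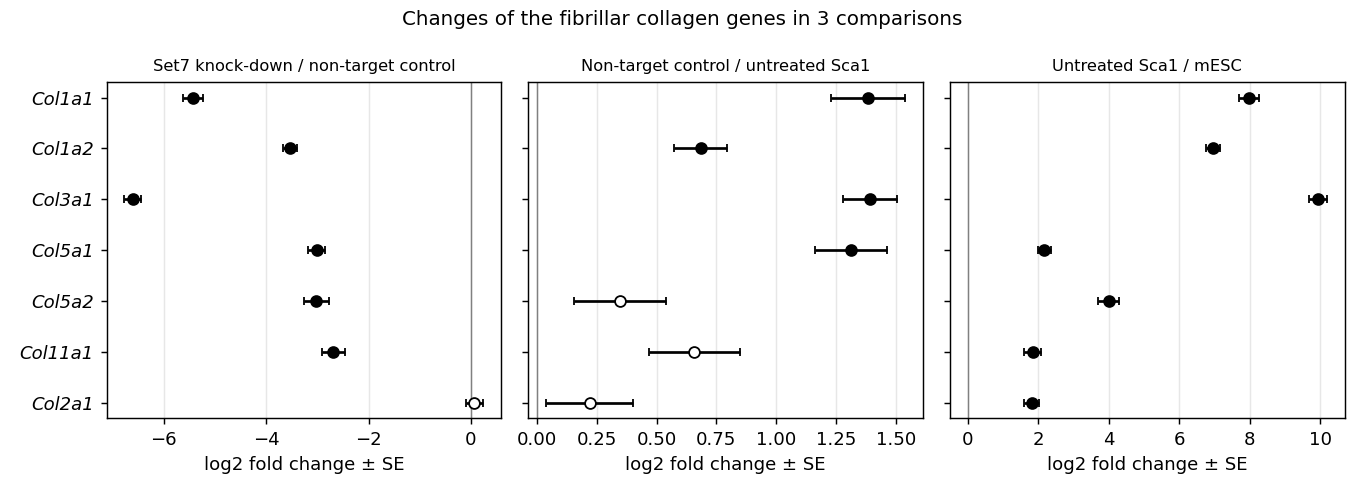
log2 fold change with its SE for each fibrillar collagen gene in 3 comparisons (n = 2 libraries per group; the x axes differ in scale), with filled points for genes called at an adjusted p under 0.05 in edgeR. Knock-down against NTC cells spans -6.60 for Col3a1 to 0.07 for Col2a1, NTC against untreated cells 0.22 to 1.39, and untreated cells against mESC 1.82 to 9.93.

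The 4 groups thus ordered the members in 3 ways. Col1a1, Col1a2, Col3a1 and Col5a1 ran NTC, untreated, knock-down and mESC, high to low, with every neighbour in that order called except knock-down and mESC for Col5a1. Col5a2 had the same order, with no call between NTC and untreated cells. Col11a1 ran NTC, untreated, mESC and knock-down, with neither the first pair nor the last called. For Col2a1 the knock-down, NTC and untreated cells followed one another with no call among them, and mESC came last.

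Summed over the 7 genes, the members' RNA was 127 ± 17.9 CPM in knock-down, 2059 ± 67.3 CPM in NTC, 906 ± 71.4 CPM in untreated cells and 40.7 ± 0.290 CPM in mESC (SD, n = 2 each). The sums and shares here leave out the other fibrillar collagens. Of these, Col27a1 had 18.2 CPM in knock-down, 26.7 CPM in NTC and 21.9 CPM in untreated cells. In mESC it had 38.8 CPM, near the sum of the 7 members there. Because the genes differ in transcript length, their make-up was compared as CPM per kb of transcript. On that scale the type I and III genes (Col1a1, Col1a2, Col3a1) held 42.5% and 41.6% of the summed level in knock-down libraries, against 86.6% and 87.4% in NTC, 82.8% and 84.8% in untreated and 8.32% and 8.72% in mESC libraries. Col2a1 held 33.9% and 36.5% in knock-down, against 2.01% and 2.14% in NTC, 4.63% and 3.41% in untreated and 32.4% and 27.1% in mESC libraries. Among the 7 it was the leading gene per kb in knock-down cells, at 8.00 and 7.19 CPM per kb, against 7.15 and 7.29 CPM per kb in NTC cells. The type V and XI genes (Col5a1, Col5a2, Col11a1) held 23.6% and 21.9% in knock-down, against 11.4% and 10.46% in NTC, 12.6% and 11.8% in untreated and 59.3% and 64.2% in mESC libraries. In the mESC libraries Col27a1 had 4.27 and 5.93 CPM per kb, beside sums of the 7 of 5.95 and 5.84 CPM per kb. The mESC shares therefore describe the 7 members and not all fibrillar collagen RNA.

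Ratios between chains were read on the same scale. Type I protein holds more Col1a1 than Col1a2 chains, and the ratio of Col1a1 to Col1a2 RNA per kb was 0.783 and 0.495 in knock-down libraries, against 2.35 and 2.29 in NTC and 1.25 and 1.61 in untreated libraries. The ratio of Col3a1 to Col1a1 per kb was 0.291 and 0.550 in knock-down, against 0.887 and 0.951 in NTC and 0.996 and 0.846 in untreated libraries. In both ratios the knock-down libraries lay below all libraries of the other Sca1 groups. The ratio of Col5a1 to Col5a2 per kb, both of type V, was 7.96 and 3.35 in knock-down, against 4.67 and 4.96 in NTC and 2.52 and 2.40 in untreated libraries, so the knock-down libraries lay on either side of NTC. With 2 libraries a group these ratios are given as values with no test. In mESC each of them would rest on at most 8 counts per library for at least 1 of its genes.

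**Figure D3:**
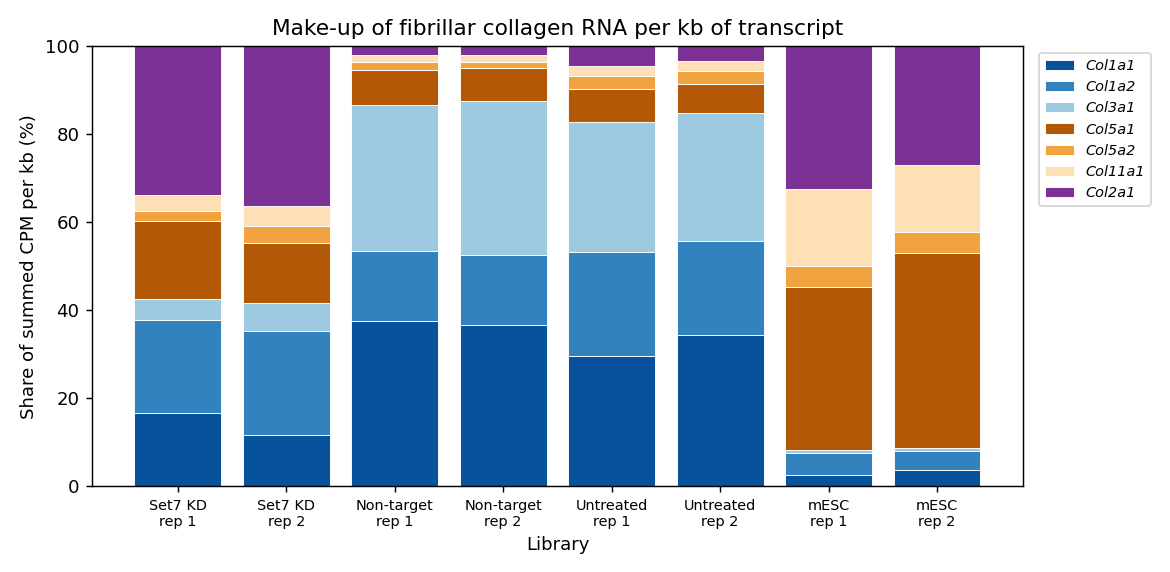
Share of each gene in the summed level of the 7 fibrillar collagen genes (CPM per kb of transcript, %) in each of the 8 libraries. The type I and III genes (blue) hold 86.6% and 87.4% in NTC libraries and 42.5% and 41.6% in knock-down libraries, where Col2a1 (purple) holds 33.9% and 36.5%.

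The promoters of 4 members were among the RefSeq promoter sequences at hand (GRCm38.p6). The 250 bases before the gene start are shown for Col1a2 and Col3a1, which fell together with the knock-down, with motif matches on either strand in capitals. The motifs searched were CCAAT, a binding site of the NF-Y complex, then the GC box that Sp factors bind, spelled GGGCGG, and the TATA box in the form TATAAA. The Col1a2 sequence is chr6:4505368-4505617 on the plus strand and the Col3a1 sequence chr1:45311288-45311537 on the plus strand.
Col1a2: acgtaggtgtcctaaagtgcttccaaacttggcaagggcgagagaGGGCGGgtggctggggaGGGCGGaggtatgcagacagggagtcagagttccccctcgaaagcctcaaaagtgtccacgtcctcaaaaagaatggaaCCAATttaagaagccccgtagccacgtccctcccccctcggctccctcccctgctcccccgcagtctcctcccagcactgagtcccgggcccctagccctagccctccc
Col3a1: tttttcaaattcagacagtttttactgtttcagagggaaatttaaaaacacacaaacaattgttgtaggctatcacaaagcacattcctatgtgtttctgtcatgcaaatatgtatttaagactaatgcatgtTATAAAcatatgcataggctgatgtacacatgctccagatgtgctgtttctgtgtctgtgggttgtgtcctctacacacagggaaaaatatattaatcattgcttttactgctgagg
Col1a2 held 1 match of the NF-Y motif and 2 of the GC box. Col3a1 held 1 match of the TATAAA letters, with its first base at -117 from the gene start. Such matches describe the letters and were not tested for an effect. The other promoters were Col5a1, with 2 matches of the GC box, and Col11a1, with 1 match of the NF-Y motif and 2 of the GC box. No match overlapped another. Over 32851 mouse promoters of the same length, the NF-Y motif was found in 33.8%, the GC box in 32.7% and the TATA box in 12.4%.

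Other genes of fibril formation were read from lists by role. Their counts of calls in knock-down against NTC cells stand beside 10.1% of all tested genes that fell and 4.25% that rose. For the lists after the other fibrillar collagens, calls in knock-down against untreated cells are also given. Those stand beside 9.89% of all tested genes that fell and 7.34% that rose. Of the 4 other fibrillar collagens, Col11a2 and Col24a1 had at most 5 and 12 counts in any library and were not tested. Col27a1 had 18.2 CPM in knock-down and 26.7 CPM in NTC cells (log2 change -0.55 ± 0.22, edgeR adjusted p = 0.115), and was called lower without the first mESC library (0.0491), without both libraries rich in NR_046233 (0.00962) and with the compared groups only (0.0110). Col5a3 had 3.73 CPM in knock-down and 5.16 CPM in NTC cells (log2 change -0.45 ± 0.36, adjusted p = 0.475). Col27a1 and Col5a3 were both lower in untreated cells than in mESC, at 21.9 and 38.8 CPM for Col27a1 (log2 change -0.80 ± 0.22, adjusted p = 0.00821) and 3.49 and 8.53 CPM for Col5a3 (-1.23 ± 0.36, adjusted p = 0.0132), where the 7 members were higher. Both calls were lost without the second untreated library (0.0877 and 0.0830) and without both libraries rich in NR_046233 (0.240 and 0.0913). That of Col27a1 was also lost without the second mESC library (0.0811) and that of Col5a3 in DESeq2 (0.0951).

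Among the fibril-associated collagens, which coat fibrils, 2 of 5 tested genes fell in knock-down against NTC cells and none rose (median -0.56, all genes -0.00). Col14a1 fell by 2.92 ± 0.23 and Col16a1 by 1.49 ± 0.35 on the log2 scale. The call of Col16a1 was lost without the second knock-down library (edgeR adjusted p = 0.183), without the first NTC library (0.108) and in DESeq2 (0.0897). Col9a2 (0.42 ± 0.22, adjusted p = 0.241) and Col22a1 (-0.56 ± 0.35, adjusted p = 0.342) were not called. Against untreated cells 1 of the 5 fell and 1 rose (median -0.68).

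Of the fibril assembly proteins, glycoproteins and proteoglycans that bind fibrils and guide their growth, 8 of 12 tested genes fell and none rose (median -1.46). Tenascin C, encoded by Tnc, had 5.95 and 4.18 CPM in knock-down, against 248 and 248 CPM in NTC libraries, a log2 change of -5.65 ± 0.21. Periostin, encoded by Postn, had 0 counts in the knock-down and 237 in the NTC pair, at least 67.1-fold lower in knock-down cells with a floor of 3 counts over the group. Bgn, the proteoglycan biglycan, fell by 3.09 ± 0.32 and Thbs1, thrombospondin 1, by 2.74 ± 0.14. Against untreated cells 7 of the 12 fell and 1 rose (median -0.94).

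Procollagen folding and cross-linking, the largest machinery list, had 20 of 30 tested genes lower and none higher in knock-down against NTC cells (median -0.84), and 13 lower without the second knock-down library. Pcolce, which enhances removal of the C-terminal propeptide, fell by 3.57 ± 0.17 on the log2 scale, and Bmp1, the protease that removes it, by 2.45 ± 0.15. Loxl2, a lysyl oxidase that starts cross-links, fell by 3.00 ± 0.16 and Fkbp10, a collagen chaperone of the endoplasmic reticulum, by 1.92 ± 0.14. Fewer genes of the list were lower against untreated cells, 12 of the 30 with none higher (median -0.52). In untreated cells against mESC this list was split, with 10 genes higher and 9 lower, where 18.7% of all genes rose and 16.8% fell. Pcolce, at 69.1 CPM in untreated cells and 119 CPM in mESC, was among the lower ones (log2 change -0.78 ± 0.13, edgeR adjusted p = 0.000206).

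Of the collagen receptors 3 of 6 tested genes fell and none rose (median -0.81), and 4 fell and 1 rose without both libraries rich in NR_046233. The endocytic receptor gene Mrc2 fell by 2.63 ± 0.22, the integrin chain gene Itgb1 by 1.36 ± 0.13 and the kinase gene Ddr2 by 1.27 ± 0.25, the last not called without the first knock-down library (edgeR adjusted p = 0.0554). Itga1 was not called, at 0.38 ± 0.15 (adjusted p = 0.0925), but was called higher without the first or the second mESC library (0.0413 and 0.0382). Against untreated cells 2 of the 6 receptor genes fell and none rose (median -0.29). On the collagen degradation list 4 of 9 fell and 1 rose against untreated cells (median -0.80). Against NTC cells 6 of the 9 fell and none rose (median -1.54), with the gelatinase gene Mmp2 lower by 2.93 ± 0.18 and the membrane-bound collagenase gene Mmp14 by 1.97 ± 0.16. The inhibitor genes Timp2 and Timp3 fell by 2.26 ± 0.23 and 1.54 ± 0.16, while Timp1, picked after its value was seen, had 27.2 CPM in knock-down and 24.6 CPM in NTC cells and was not called (log2 change 0.16 ± 0.18, adjusted p = 0.633).

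Of the regulators of fibrillar collagen genes 12 of 29 tested genes fell and 1 rose (median -0.53), and 8 fell and none rose without the first knock-down, the second knock-down or the first NTC library. The growth factor gene Tgfb2 fell by 3.31 ± 0.24, the gene of the membrane-bound factor Creb3l1, an activator of type I collagen genes in bone, by 2.14 ± 0.24, and that of the mesenchymal factor Twist1 by 2.80 ± 0.34. Prrx1, another mesenchymal factor, had 1 count in the knock-down and 103 in the NTC pair, a ratio of 0.0114 with a 95% counting interval of 0.000287 to 0.0651. The gene that rose was Sp1 (0.42 ± 0.11, edgeR adjusted p = 0.0202), named here after its value was seen. Sp1 lies on chromosome 15, whose genes had a median log2 change of 0.41 in this comparison. What part that has in the value of Sp1 was not tested. Sox9, the main activator of Col2a1 in cartilage and also picked after its value was seen, had 0.700 and 1.32 CPM in knock-down, against 7.33 and 6.24 CPM in NTC libraries (log2 change -2.62 ± 0.49, adjusted p = 0.00153), in the comparison where Col2a1 was not called. Against untreated cells 12 of the 29 regulators fell and 1 rose (median -0.54).

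**Figure D4:**
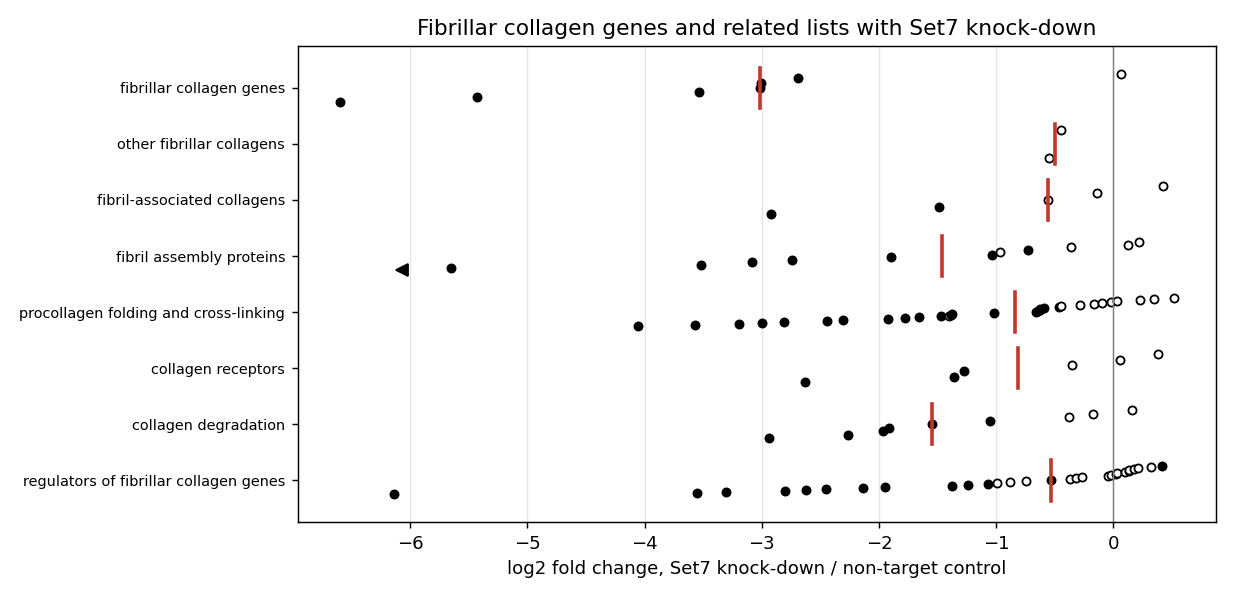
log2 fold change of knock-down against NTC cells for the tested genes of each list, one point per gene, filled where called at an adjusted p under 0.05 in edgeR, with the list's median in red and the median of all genes as a grey line. The arrowhead is Postn, drawn at its least fold with 3 counts in the knock-down group. The fibrillar collagen genes reach from -6.60 to 0.07 around a median of -3.02, below the medians of the other lists.

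Some marker lists of cell types moved beside the collagens and others did not. Of all tested genes 10.1% fell and 4.25% rose in knock-down against NTC cells. Whether the small counts of these short lists differ from those shares was not tested. Of 9 tested mesenchymal and fibroblast markers, 7 fell in knock-down against NTC cells and none rose, and their summed level was 579 and 583 CPM in knock-down, against 952 and 952 CPM in NTC, 669 and 538 CPM in untreated and 546 and 534 CPM in mESC libraries. Against untreated cells 5 of these 9 fell and Fbln1 alone rose, where 9.89% of all genes fell and 7.34% rose. Thy1 and Fbln1 were the markers not called in knock-down against NTC cells. Pdgfrb, a receptor gene of mesenchymal and mural cells, had 12.6 CPM in knock-down, 62.1 CPM in NTC and 24.5 CPM in untreated cells and 6.99 CPM in mESC. Of 6 smooth muscle markers 4 fell and none rose, with sums of 152 and 160 CPM in knock-down, against 551 and 578 CPM in NTC, 878 and 540 CPM in untreated and 36.4 and 30.6 CPM in mESC libraries. Of 8 pluripotency markers 2 rose and none fell, with sums of 2360 and 2323 CPM in knock-down, against 1866 and 1815 CPM in NTC, 2048 and 1792 CPM in untreated and 3310 and 3067 CPM in mESC libraries. Of 3 tested osteoblast markers, a cell type that also makes type I collagen, Alpl rose and none fell, with sums of 924 and 864 CPM in knock-down, against 713 and 703 CPM in NTC, 512 and 500.1 CPM in untreated and 940.1 and 1001 CPM in mESC libraries. Alpl, also a gene of pluripotent cells, made up most of these sums in knock-down and NTC cells, at 758 and 557 CPM, and Bglap had no count in any library. Of 6 endothelial markers and of 1 tested blood marker none was called, of 8 extraembryonic endoderm markers 1 rose and 2 fell, and of 6 epithelial markers 1 fell and none rose. The part of these cell types in the collagen changes was not tested.

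Group means of markers of the cells best known for type II collagen ran from near 0 to 119 CPM, not scaled to transcript length. Of the chondrocyte list, Col10a1, Col9a1, Comp and Matn4 averaged at most 1.502 CPM in every group, and Acan, encoding aggrecan, had 9.74 CPM in knock-down, 8.08 CPM in NTC and 7.77 CPM in untreated cells and 8.29 CPM in mESC. Hapln1, a link protein of the cartilage matrix, had 18.7 CPM in knock-down, 32.9 CPM in NTC and 20.6 CPM in untreated cells and 19.1 CPM in mESC. Ihh, a signal of maturing chondrocytes that other embryonic cells also make, had 20.0 CPM in knock-down, 22.3 CPM in NTC and 9.10 CPM in untreated cells and 20.9 CPM in mESC. The list's 10 markers summed to 57.8 and 53.4 CPM in knock-down, against 73.5 and 86.0 CPM in NTC, 55.0 and 45.5 CPM in untreated and 63.0 and 55.9 CPM in mESC libraries. Of 6 tested, Hapln1 and Sox9 fell in knock-down against NTC cells and none rose, where 10.1% of all genes fell and 4.25% rose. Of the notochord list, Noto had no count in any library and Shh averaged at most 1.02 CPM, while T, also a gene of the primitive streak, had 102 CPM in knock-down, 89.1 CPM in NTC and 119 CPM in untreated cells and 50.6 CPM in mESC. Foxa2 had 5.29 CPM in knock-down, 8.27 CPM in NTC and 10.1 CPM in untreated cells and 9.03 CPM in mESC.

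Across the 8 libraries, log2 CPM of the members other than Col2a1 ran together, with Pearson r between 0.850 (Col1a2 with Col11a1) and 0.995 (Col1a1 with Col3a1). Col2a1 correlated with them at 0.449 (Col11a1) to 0.841 (Col1a2). These values describe 8 points that share 4 groups and their library depth. Of 11185 genes reaching 10 CPM in a group, members left out, those most like Col1a1 were Fbln2 (r = 0.999), Tnc and Tmem119 (both 0.996). Col3a1 was most like Ccdc80 (0.998), Tril (0.998) and Tnc (0.997), and Col1a2 most like Wls (0.999), Thbs1 (0.998) and Peg3 (0.995). Col5a1 was most like Col4a6 (0.996), Crispld2 (0.995) and Arhgef17 (0.995), and Col5a2 most like Smo (0.994), Gas1 (0.993) and Tril (0.992), the last below its r with the member Col3a1 (0.993). Col11a1 was most like Postn (0.992), Pcdhgc3 (0.990) and Mmp2 (0.990), where Pcdhgc3 shares sequence with its gene cluster and its counts are uncertain. Col2a1 had none of these genes beside it, but Lypd6 (0.991), Cpt1b (0.990) and the keratin gene Krt8 (0.989), of which Cpt1b and Krt8 also lie on chromosome 15. Krt8 averaged 88.6 CPM in knock-down, 95.04 CPM in NTC and 88.9 CPM in untreated cells and 16.4 CPM in mESC.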

How the data were processed

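Poly(A) RNA of 8 libraries in 4 groups of 2 was sequenced on a Genome Analyzer, per the labels' protocols. The authors deposited whole-number read counts per RefSeq transcript in 1 table of 29614 rows, judged from the values not scaled. BWA 0.5.9 and SAMtools 0.1.17 are listed, with edgeR 0.19 and without a role, per the submitters' processing notes. Build, annotation release, counting program and strand setting: not given in the sources used here. Reads from overlapping antisense transcripts therefore cannot be told apart.

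Rows were named through a RefSeq gene table (28981 rows) and GENCODE vM21 metadata (177), and 456 rows stayed under their accession. Each of the 23483 genes was represented by its row with the highest total, since 2062 of the 3853 genes with several rows had identical values in them. Gene totals were 2790736 and 4406728 (knock-down), 4079756 and 4301485 (NTC), 3097411 and 2507938 (untreated) and 4288553 and 5080266 (mESC).

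The tests were robust quasi-likelihood F tests of edgeR 4.0.16 (R 4.3.3) after filterByExpr and TMM scaling, in a fit of the 8 libraries that gave each group its mean (4 residual degrees of freedom). P-values were Benjamini-Hochberg adjusted over 13966 genes and called at 0.05. The SE was derived from F and the log2 change. The code was tested on simulated counts. Alternatives were DESeq2 1.42.0, RLE factors or library totals in place of TMM, the filter left out or set to 5 CPM in at least 2 libraries, the compared groups only, a block, a change above 1.5-fold, the sum of transcript rows and each library left out. Fits without both libraries rich in NR_046233, and without that row, were added after seeing the data. Counting intervals are exact at 95% and, like the floor of 3 counts, cover counting error only.

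The members and gene lists were chosen with earlier results of these data known. Named were all members, Setd7, every other fibrillar collagen, up to 4 genes per list with the smallest p in knock-down against NTC, and the 3 genes most correlated with each member. Markers, Ly6a, Sp1, Sox9 and Timp1 are named outside that rule. Transcript lengths are those of GENCODE vM21 and promoters those of RefSeq.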

Additional observations from a re-analysis of the deposited data

How the results depend on the processing

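The count of called fibrillar collagen genes did not move by more than 1.5 times, or change its direction, in any of the 6 comparisons under any alternative run. Of 798 alternative values of single members, 782 kept direction and call, 9 gained a call, 6 lost one and 1 reversed. For the named list genes these were 960, 11, 15 and 2 of 988. The members were read in all 6 comparisons, the named list genes only in knock-down against NTC cells and untreated cells against mESC. Reversed values all belonged to differences that were not called. Leaving out a library put Col2a1 in knock-down against NTC cells between -0.0034 (first knock-down library) and 0.15. It put Setd7 in knock-down cells against mESC between -0.45 and 0.11 (second mESC library), with 0.015 without the second knock-down library and 0.11 without both libraries rich in NR_046233. Col22a1 in untreated cells against mESC lay between -0.24 (without the second untreated library) and 0.89, and at -0.093 without both rich libraries. Beside the losses given above, a test for a change above 1.5-fold ended the calls of Col1a2 in NTC against untreated cells, Col5a2 in knock-down cells against mESC (adjusted p = 0.110 in edgeR), Col16a1 in knock-down against NTC cells (0.0597), and Col5a3 (0.0870), Col27a1 (0.262), Pcolce (0.134) and Itga1 (0.0931) in untreated cells against mESC. The cause was not tested.

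Counts over all genes moved far more. The 1998 calls of knock-down against NTC became 1278 in DESeq2, 4416 with the compared groups only, 597 above 1.5-fold, 4462 without both rich libraries and 648 to 2826 on leaving out 1 library, with the lowest counts, up to 904, on leaving out a knock-down or NTC library. The 697 calls of NTC against untreated cells became 15 above 1.5-fold, 1148 with no filter, 2386 without both rich libraries and 57 (first NTC library) to 1517 (second mESC library) on leaving out 1 library. The shares of all genes printed beside the members' counts move with them. With library totals only, the calls of knock-down against NTC were 259 higher and 1154 lower, against 594 and 1404 with TMM. Those of NTC against untreated cells were then 493 and 18, against 542 and 155, those of NTC against mESC 2912 and 1209, against 2738 and 2160, and those of knock-down against mESC 1906 and 1071, against 1884 and 1731.

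The numbers in the sample descriptions were tried as a replicate block. They are not known to pair libraries, since each of the compared sets holds only 2 pairs and the deviations of same-numbered libraries correlated at 0.0526 (knock-down with NTC) and 0.265 (untreated with mESC). The 2 libraries with the number 3 are those rich in NR_046233, so that trait goes with the number. With the block, the members called stayed 6, 6, 4, 7, 7 and 5 in the 6 comparisons, while the calls of NTC against untreated cells over all genes became 1261. The 2 libraries a group limit the low members most, with 34 counts of Col5a2 in the knock-down pair and 2 of Col3a1 in mESC.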

Other observations

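The regulators, assembly proteins and degradation enzymes were also read in untreated cells against mESC. Of the regulators 14 of 29 tested genes rose and 2 fell (median 0.38, all genes -0.01), of the assembly proteins 8 of 12 rose and 2 fell (median 2.15), and of the degradation list 7 of 9 rose and 2 fell (median 2.00), where 18.7% of all genes rose and 16.8% fell. Thbs1 had 104 CPM in untreated cells and 1.69 CPM in mESC, and Mmp2 64.7 and 14.6 CPM, while Timp1 of the degradation list had 25.7 and 52.4 CPM. Loxl2, of the folding and cross-linking list that was split in this comparison, had 126 and 12.5 CPM. Of the receptor list 3 of 6 tested genes rose and 1 fell. Ddr2, a receptor of fibrillar collagen, was the one that fell, with 14.4 CPM in untreated cells and 51.2 CPM in mESC (log2 change -1.81 ± 0.24, edgeR adjusted p = 1.72e-05).

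In NTC against untreated cells, 11 of the 30 tested folding and cross-linking genes were higher and none lower (median 0.47, all genes 0.01), beside the 4 members that were higher. Bmp1 was higher by 0.90, Pcolce by 0.78 and Loxl2 by 0.75 on the log2 scale. Of the collagen degradation list 5 of 9 were higher and none lower, and of the regulators 1 of 29, Tgfb2, with a log2 change of 0.83 (edgeR adjusted p = 0.0192). Of all genes 3.88% were higher and 1.11% lower, so the regulators' share lay near that of all genes.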
